A study of Mus musculus with 6 samples.

Results

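Elastic fibre and proteoglycan genes were examined in aortic arteries of C57BL/6 mouse fetuses that carried 1 working copy of Nod1 (Nod1 +/-) or none (Nod1 -/-). The 41 genes were taken by name from a fixed list of elastic fibre, cross-linking, small leucine-rich and cartilage proteoglycan genes, out of 34797 gene names on a 1-colour Agilent array. They were read by 60 non-control probes. Both genotypes came from Nod1 -/- dams crossed to Nod1 +/- males, and per the design text they were littermates. Every dam had received 500 µg of FK565, a synthetic ligand of the peptidoglycan sensor NOD1, under the skin at E18.5, and vessels were collected 6 h afterwards. Each genotype had 3 arrays, and all fetuses had been exposed to FK565. The deleted stretch of Nod1 is not named in the labels. Nor is it stated whether an array held 1 fetus or a pool, so the p-values describe only how these samples spread, which may be technical.

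Elastic fibres give large arteries their recoil. Elastin, laid down by smooth muscle cells before and around birth, is deposited on a scaffold of fibrillin microfibrils with the help of fibulins and emilins, and is cross-linked by the copper enzymes of the lysyl oxidase family. Small leucine-rich proteoglycans bind collagen fibrils and set their diameter and spacing. Large proteoglycans such as versican and aggrecan hold water by binding hyaluronan, a bond that link proteins stabilise.

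Between 48.6% and 58.3% of probes were well above background on an array. All 6 arrays lay on 1 slide, with Nod1 -/- replicates 1 and 2 in row 1 and the other 4 arrays in row 2. Nod1 itself, read by a probe that may lie outside the deleted part, differed by 0.13 on the log2 scale (95% confidence interval -0.32 to 0.59) and does not check the labels. The 11 smooth muscle and 9 endothelial marker genes were well above background on all 6 arrays, so the defining genes of the labelled tissue were present. Skeletal muscle markers averaged 4.98 on Nod1 +/- replicate 1 and between 0.52 and 1.08 on the other arrays. Xist was well above background on 2 Nod1 +/- arrays and 1 Nod1 -/- array. All values below are log2 signal minus the array's 75th percentile of signal, differences are Nod1 +/- minus Nod1 -/-, and p is limma's, adjusted over all 21478 genes tested. A gene with several probes was read by its brightest one, and signal levels were not compared between genes.

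Of the 41 genes, 38 were well above background on at least 3 arrays and were tested, 37 of them on all 6 arrays. Prelp, encoding a basement membrane-anchoring proteoglycan, and the cartilage matrilin genes Matn1 and Matn3 were not well above background on any array. Among the 38, 12 fell in Nod1 +/- vessels and 1 rose. That is 31.6% lower and 2.63% higher, against 11.0% lower and 7.66% higher among all genes tested (18.7% in either direction). The genotypes did not overlap for 16 of the 38, or 42.1%, close to the 42.4% of all genes tested. Of these 16, 15 were lower in Nod1 +/-, which is 15 of the 38 tested, against 26.1% of all genes tested. Over all genes, 5596 of the 9097 without overlap were lower. The median difference was -0.31 for the 38 genes, -0.30 for the 37 above background on every array and -0.10 for all genes. Scaling by the array median in place of the 75th percentile moved the median of all genes upward by 0.10 and left 7 of the 12 lower calls, so differences of about that size have no settled sign. With that scaling, 926 of all genes were lower and 1580 higher, against 2366 lower and 1646 higher as reported.

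**Figure D1:**
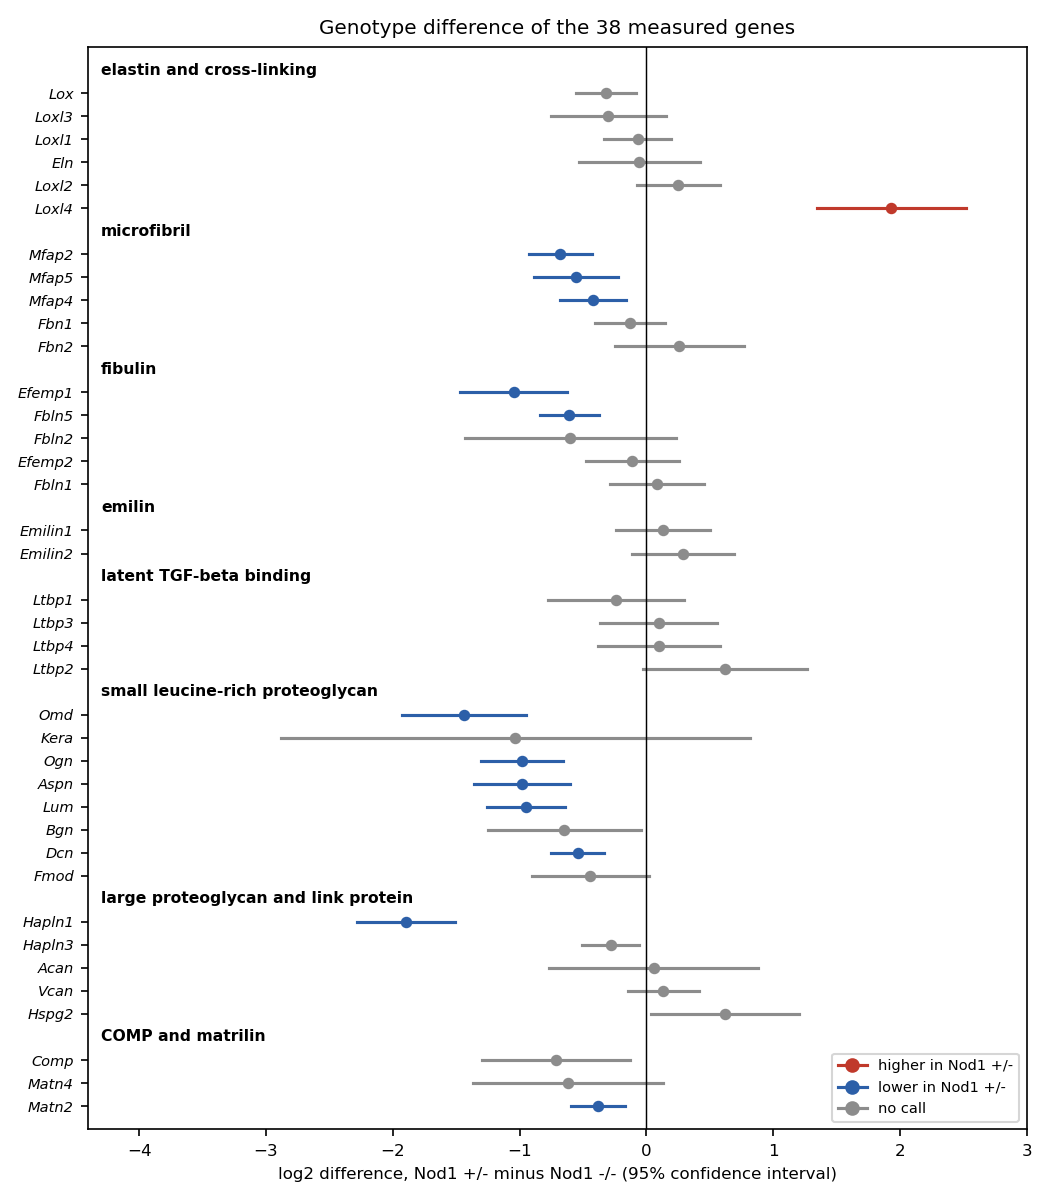
Difference between genotypes for each of the 38 tested genes, grouped by the role of the protein. Points are log2 differences (Nod1 +/- minus Nod1 -/-), lines are 95% confidence intervals, and colours mark genes with adjusted p below 0.05. Among small leucine-rich proteoglycan genes 5 are coloured as lower and Kera has the widest interval, while no elastin, emilin or latent TGF-beta binding protein gene is coloured and Loxl4 stands alone at 1.93.

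Elastin and the enzymes that cross-link it did not pass the threshold, with the exception of Loxl4. Eln, encoding elastin (chr5:135179129-135179188 of mm9, minus strand), lay at 7.36, 7.71 and 7.92 on Nod1 +/- replicates 1 to 3 and at 7.47, 7.70 and 7.98 on the Nod1 -/- arrays. The genotypes overlapped fully, and the spread among arrays of 1 genotype was wider than the difference of -0.05 (interval -0.53 to 0.42; adjusted p = 0.865). Lox, the principal lysyl oxidase of the aorta, lay at 2.53, 2.58 and 2.48 against 2.74, 2.92 and 2.89. All Nod1 +/- values of Lox were below all Nod1 -/- values, by 0.32 on average (standard error 0.10), but the adjusted p was 0.0693. A second Lox probe gave -0.16. The call was made with normexp background correction (-0.35; adjusted p = 0.0394) and with an intensity trend and robust prior (adjusted p = 0.0434). Loxl1, needed for elastic fibre renewal in adult mice, Loxl2 and Loxl3 had differences of -0.07, 0.25 and -0.30, and none of them passed. Dimmer probes gave -0.34 for Loxl1 and 0.47 and 0.46 for Loxl2, with separate groups. None of these probes passed when tested singly (limma's adjusted p = 0.15, 0.0625 and 0.0657). Without Nod1 +/- replicate 3, which lay at 0.76 against 0.13 and 0.14 on the other Nod1 +/- arrays, Loxl3 differed by -0.51 (adjusted p = 0.027).

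Loxl4, a scavenger-receptor-domain member of the lysyl oxidase family, was the only one of the 38 genes to rise. It lay at -0.53, -0.53 and 0.15 on the Nod1 +/- arrays and at -2.51, -2.27 and -1.93 on the Nod1 -/- arrays (chr19:42667320-42667379 of mm9, minus strand). Every Nod1 +/- array was above every Nod1 -/- array by more than 1 log2 unit. The mean of -0.30 ± 0.39 (SD, n = 3) against -2.24 ± 0.29 amounts to 3.82-fold, with a log2 difference of 1.93 (standard error 0.24) and an adjusted p of 0.00565. A second Loxl4 probe rose by 1.77 (standard error 0.15; adjusted p = 0.00222 when limma tested every kept probe singly). The call held without any single array and was lost when slide row was a block (1.62; adjusted p = 0.0609).

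The promoter of Loxl4 is shown because it belongs to the only gene that rose, and it can be set beside promoters of some genes that fell. It spans 250 bases before to 50 after the annotated start in RefSeq's GRCm38.p6, chr19:42612757-42613056, minus strand. Capitals mark matches on either strand to any of 6 motifs, searched separately so that matches may overlap: the TATA box TATAAA, the CAAT box CCAAT, the GC box GGGCGG, the AP-1 site TGANTCA, the NF-kB consensus and the CArG box.
Loxl4 promoter: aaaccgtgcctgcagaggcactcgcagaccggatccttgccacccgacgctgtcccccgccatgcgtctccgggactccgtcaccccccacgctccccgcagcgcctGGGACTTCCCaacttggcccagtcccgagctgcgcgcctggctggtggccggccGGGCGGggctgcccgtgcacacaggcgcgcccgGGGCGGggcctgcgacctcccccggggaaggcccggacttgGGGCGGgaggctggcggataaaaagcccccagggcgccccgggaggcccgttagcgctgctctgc
It holds GGGCGG 3 times and the NF-kB consensus once. The NF-kB consensus was found in 8.46% of all 32851 promoters in that table and in 7 of the 39 promoters of members, which cover 29 of the 41 genes. GGGCGG was found in 35.7% of all promoters and 22 of the 39. Neither motif was particular to the gene that rose. Among genes that fell, Mfap2 also held the NF-kB consensus, and Efemp1, Fbln5 and Mfap2 held GGGCGG, though their promoters are not shown. A match describes letters in this window and is not a measured binding site.

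Of the 5 microfibril genes, 3 fell. The fibrillin genes, whose products form the microfibril backbone, did not pass the threshold. Fbn1 lay at 4.99, 5.05 and 5.01 in Nod1 +/- and 4.95, 5.24 and 5.23 in Nod1 -/- vessels, and these ranges overlapped. Its difference was -0.13 (interval -0.41 to 0.15; adjusted p = 0.458), and that of Fbn2, the fetal fibrillin, was 0.26 (interval -0.25 to 0.77).

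The 3 that fell encode microfibril-associated proteins, and their difference from the fibrillin genes was not tested. Mfap2, encoding the glycoprotein MAGP-1 that binds fibrillin and tropoelastin, lay at 6.61, 6.47 and 6.55 in Nod1 +/- and at 7.20, 7.34 and 7.12 in Nod1 -/- vessels. The groups were separate, and the fall was 1.60-fold (log2 -0.68, standard error 0.10; adjusted p = 0.00993). Its second probe gave nearly the same difference, -0.66, with a wider error (standard error 0.18; adjusted p = 0.0586 when tested singly). That probe is shown because it reads the coding part of the transcript, on chr4:140570920-140570979 of mm9, plus strand.
Mfap2 probe: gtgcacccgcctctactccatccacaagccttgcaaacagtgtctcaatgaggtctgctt
Mfap5, encoding the related MAGP-2, lay at 6.38, 6.46 and 6.43 against 7.16, 7.06 and 6.72, with Nod1 -/- replicate 3 nearest to the Nod1 +/- arrays (-0.56, standard error 0.14; adjusted p = 0.0392). Mfap4, a fibrinogen-related protein of elastic fibres, lay at 7.16, 7.24 and 7.28 against 7.49, 7.73 and 7.72 (-0.42, standard error 0.11; adjusted p = 0.0436). The last 2 calls were fragile. Mfap4 did not pass without any 1 of the 6 arrays (adjusted p between 0.059 and 0.137), and Mfap5 passed only without Nod1 -/- replicate 3. Blocking on slide row, the difference of Mfap5 was -0.29 (adjusted p = 0.246). Mfap2 kept its call without any single array and lost it with median scaling (adjusted p = 0.0651).

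Of the 5 fibulin genes, encoding glycoproteins that link elastin to microfibrils and cells, 2 fell. Fbln5, which guides elastin assembly, lay at 7.52, 7.49 and 7.48 in Nod1 +/- and at 8.10, 8.01 and 8.21 in Nod1 -/- vessels. The Nod1 +/- arrays agreed within 0.04, and Fbln5 fell 1.52-fold (log2 -0.61, standard error 0.10; adjusted p = 0.0109). A dimmer probe of Fbln5 fell by 1.28, and averaging both probes gave -0.94, so the size of the change depends on the probe. Efemp1 (fibulin-3) lay at -0.75, -0.20 and -0.57 against 0.44, 0.45 and 0.73, a 2.06-fold fall (log2 -1.05, standard error 0.17; adjusted p = 0.0126). Both calls held without any single array. Fbln5 also passed narrowly when slide row was a block, but that difference rests on 1 Nod1 -/- array.

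The other fibulins did not pass. Efemp2 (fibulin-4), without which mice form no intact elastic fibres, differed by -0.11 (interval -0.48 to 0.26). The 3 probes of Fbln1 gave 0.09, 0.25 and 0.31. Fbln2 lay at 6.50, 7.79 and 6.65 against 7.45, 7.61 and 7.68, so that 2 Nod1 +/- arrays were low and replicate 2 was the highest of all 6. The 4 mesothelial marker genes averaged -0.25, 1.14 and -0.17 on the same Nod1 +/- arrays and between 0.93 and 1.44 on the Nod1 -/- arrays, again with replicate 2 apart from the other Nod1 +/- arrays, and their part in the Fbln2 value was not tested. Its difference of -0.60 had an adjusted p of 0.259, and without Nod1 +/- replicate 2 it was -1.005 (adjusted p = 0.0161).

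No emilin and no latent TGF-beta binding protein gene passed the threshold. Emilin1 and Emilin2, elastin-microfibril interface proteins, differed by 0.14 and 0.29. Ltbp1, Ltbp3 and Ltbp4, which tether latent TGF-beta to the matrix, differed by -0.24, 0.10 and 0.10. Ltbp2, a fibrillin-binding relative that does not bind latent TGF-beta, lay at 6.49, 6.49 and 7.12 against 5.72, 6.00 and 6.53. The groups overlapped at Nod1 -/- replicate 3, and the difference of 0.62 (interval -0.03 to 1.26) had an adjusted p of 0.154.

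**Figure D2:**
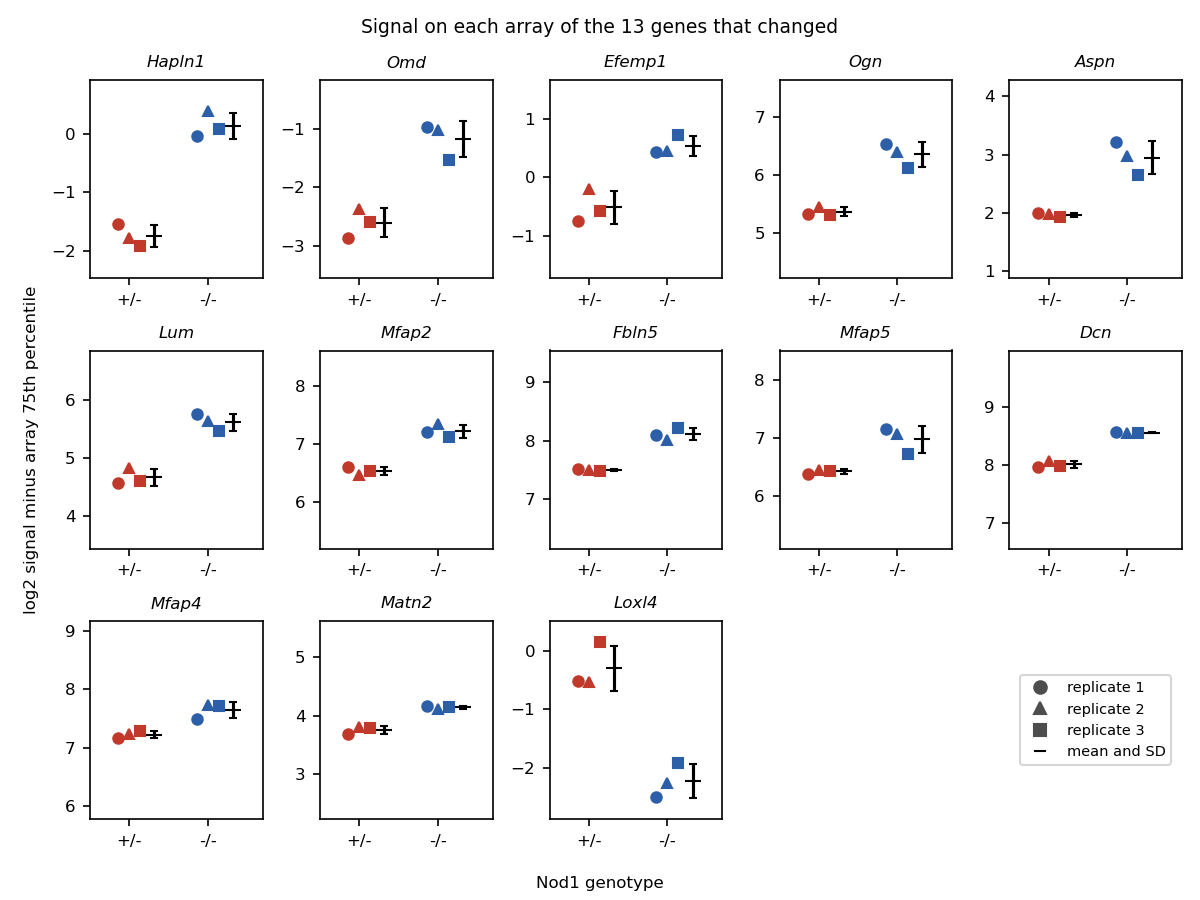
Log2 signal minus the array's 75th percentile on each array for the 13 genes that passed the threshold, by Nod1 genotype, with the mean and SD of 3 arrays as a bar beside the points. Every panel spans the same range of log2 units. In each panel the 3 Nod1 +/- arrays are separate from the 3 Nod1 -/- arrays, with the widest gap in Hapln1 and the narrowest in Mfap5 and Mfap4.

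Of 8 small leucine-rich proteoglycan genes tested, 5 fell in Nod1 +/- vessels and 3 did not pass the threshold. For the 7 that were well above background on every array the differences ran from -1.44 to -0.44. Kera was not above background on most Nod1 +/- arrays. Of the 5, 3 lie side by side on chromosome 13 (Aspn, Omd and Ogn, with 25.3 kb and 31.6 kb between their probes in mm9), and 2 on chromosome 10 (Dcn and Lum, 54.9 kb apart). Their neighbour Kera lies 40.96 kb beyond Lum.

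On chromosome 13, Ogn, encoding osteoglycin (mimecan), lay at 5.33, 5.46 and 5.32 in Nod1 +/- and at 6.53, 6.40 and 6.12 in Nod1 -/- vessels. That is a 1.98-fold fall (log2 -0.98, standard error 0.13; adjusted p = 0.00694). Omd, encoding the keratan sulphate proteoglycan osteomodulin, lay at -2.86, -2.36 and -2.59 against -0.97, -1.01 and -1.53, a 2.71-fold fall (log2 -1.44, standard error 0.20; adjusted p = 0.00788). Aspn, encoding asporin, a collagen-binding inhibitor of TGF-beta, lay at 1.99, 1.99 and 1.93 against 3.22, 2.97 and 2.65, a 1.97-fold fall (log2 -0.98; adjusted p = 0.0112). In all 3 genes Nod1 -/- replicate 3 was the lowest array of its genotype and still above every Nod1 +/- array. Omd is dim, and with normexp background correction its difference was -0.87. Without Nod1 -/- replicate 2, Aspn had an adjusted p of 0.0524.

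The promoters of these 3 neighbours are shown because the genes fell together, with the same 6 motifs in capitals. In GRCm38.p6, all on the plus strand, they lie at chr13:49544193-49544492, chr13:49582212-49582511 and chr13:49607765-49608064.
Aspn promoter: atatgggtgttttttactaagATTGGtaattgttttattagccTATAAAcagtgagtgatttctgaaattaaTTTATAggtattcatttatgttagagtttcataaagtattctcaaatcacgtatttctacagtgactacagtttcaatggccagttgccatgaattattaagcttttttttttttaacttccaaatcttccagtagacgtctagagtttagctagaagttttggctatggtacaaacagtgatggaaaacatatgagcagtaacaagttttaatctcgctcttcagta
Omd promoter: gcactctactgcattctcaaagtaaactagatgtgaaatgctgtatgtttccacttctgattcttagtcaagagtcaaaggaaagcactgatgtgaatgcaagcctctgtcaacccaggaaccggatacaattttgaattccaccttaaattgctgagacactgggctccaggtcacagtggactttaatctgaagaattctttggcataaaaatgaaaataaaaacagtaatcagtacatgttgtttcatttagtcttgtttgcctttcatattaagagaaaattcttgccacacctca
Ogn promoter: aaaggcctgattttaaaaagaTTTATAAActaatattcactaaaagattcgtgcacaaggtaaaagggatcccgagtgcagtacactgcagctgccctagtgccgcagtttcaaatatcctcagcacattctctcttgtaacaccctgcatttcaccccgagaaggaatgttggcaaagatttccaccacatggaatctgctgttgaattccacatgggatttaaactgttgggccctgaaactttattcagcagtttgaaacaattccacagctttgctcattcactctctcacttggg
TATAAA was found in Aspn and Ogn, in 3 of the 39 promoters of members (7.69%) and in 13.6% of all promoters in the table. CCAAT was found in Aspn, in 14 of the 39 (35.9%) and in 37.4% of all promoters. None of the 6 motifs occurs in the window of Omd, and none is common to all 3 genes.

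On chromosome 10, Lum, encoding lumican, lay at 4.57, 4.83 and 4.60 in Nod1 +/- and at 5.75, 5.63 and 5.46 in Nod1 -/- vessels. The fall was 1.93-fold (log2 -0.95, standard error 0.13; adjusted p = 0.00677). Dcn, encoding decorin, which binds collagen and TGF-beta, lay at 7.97, 8.07 and 7.99 against 8.57, 8.55 and 8.54. It was among the tightest of the genes described, and fell 1.46-fold (log2 -0.54, standard error 0.09; adjusted p = 0.0115). Dcn lost its call without Nod1 -/- replicate 1 or 2 (adjusted p = 0.0511 and 0.0506) and with median scaling (0.0899). Its probe is shown because it reads the end of the coding sequence, on chr10:96980233-96980292 of mm9, plus strand.
Dcn probe: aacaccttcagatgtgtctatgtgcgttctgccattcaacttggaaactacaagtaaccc
Kera, encoding the corneal proteoglycan keratocan, was well above background on 1 Nod1 +/- and all 3 Nod1 -/- arrays. It lay at -3.14, -6.10 and -5.60 against -3.61, -4.36 and -3.77, so that Nod1 +/- replicate 1 was the highest of all arrays. That array also carried the skeletal muscle signal, whose part in this value was not tested. Kera did not pass the threshold (adjusted p = 0.37), and no size is given for its difference because most of its Nod1 +/- signals were at background.

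The remaining members of the family did not pass. Bgn, encoding biglycan on the X chromosome, lay at 3.30, 3.76 and 2.97 against 4.21, 4.12 and 3.64, with a slight overlap (-0.65, interval -1.25 to -0.05; adjusted p = 0.12). Fmod, encoding the collagen-binding fibromodulin, differed by -0.44 (interval -0.90 to 0.02; adjusted p = 0.154). The gene next to it on chromosome 1, Prelp, was the undetected member, and its signal was read by 1 probe only.

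Among large proteoglycans and link proteins, 1 gene fell. Hapln1, encoding the link protein that locks aggrecan or versican onto hyaluronan, lay at -1.54, -1.78 and -1.92 in Nod1 +/- and at -0.04, 0.39 and 0.08 in Nod1 -/- vessels (chr13:89751096-89751155 of mm9, plus strand). The gap between the groups was over 1 log2 unit and larger than the spread within either. The mean of -1.75 ± 0.19 (SD, n = 3) against 0.15 ± 0.22 is a 3.72-fold fall (log2 -1.89, standard error 0.16; adjusted p = 0.00177). It was the largest fall among the 38 genes and had the smallest p. It held without any single array, and without the first replicate of both genotypes, a fit added after the data had been seen. With slide row as a block Hapln1 also passed (-1.83), but that difference rests on 1 Nod1 -/- array. Its promoter lies at chr13:89540386-89540685 of GRCm38.p6, plus strand, and is shown for comparison with that of Loxl4, the gene that changed as much in the other direction. It holds none of the 6 motifs, so no letters are in capitals.
Hapln1 promoter: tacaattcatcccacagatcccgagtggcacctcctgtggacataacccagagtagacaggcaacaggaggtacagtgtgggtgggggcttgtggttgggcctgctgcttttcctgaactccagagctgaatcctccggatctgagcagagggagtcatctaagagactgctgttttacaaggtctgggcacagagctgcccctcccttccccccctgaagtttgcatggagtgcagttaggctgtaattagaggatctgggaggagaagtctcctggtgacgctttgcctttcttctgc

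Vcan, encoding versican, the main hyaluronan-binding proteoglycan of fetal arteries, lies 43.9 kb from Hapln1 on the opposite strand and did not share its fall. Its brightest probe lay at 3.95, 3.88 and 3.99 in Nod1 +/- and at 3.63, 3.95 and 3.83 in Nod1 -/- vessels, a difference of 0.14 (interval -0.14 to 0.41; adjusted p = 0.435). The confidence intervals of Hapln1 and Vcan do not overlap. The other Vcan probes were higher in Nod1 +/-, by 0.49 (standard error 0.12) and 0.59 (standard error 0.15), and passed the threshold narrowly when each probe was tested on its own (limma's adjusted p = 0.0429 and 0.0499). The first of them is shown because it disagrees with the brightest probe and by its reading frame covers part of the hyaluronan-binding region, on chr13:89851810-89851869 of mm9, minus strand.
Vcan probe: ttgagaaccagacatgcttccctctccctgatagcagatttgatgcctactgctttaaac
At that probe the Nod1 +/- arrays lay at 2.41, 2.32 and 2.07 and the Nod1 -/- arrays at 1.73, 1.81 and 1.79, with no overlap. Whether the probes read different versican isoforms was not tested.

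**Figure D3:**
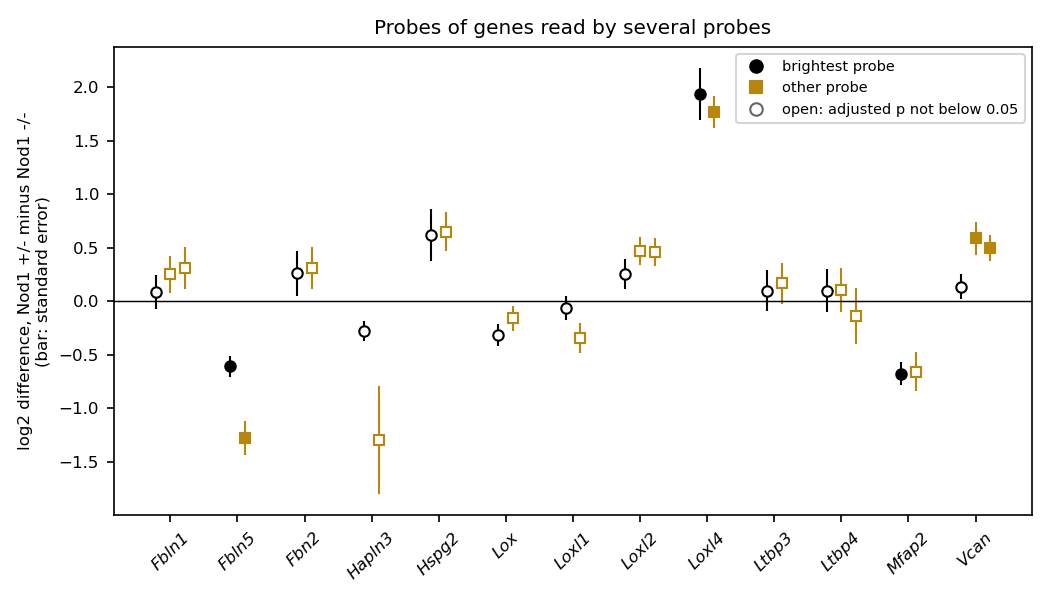
Log2 difference (Nod1 +/- minus Nod1 -/-) at every kept probe of the 13 genes with several kept probes, with the standard error as a bar. Filled symbols have an adjusted p below 0.05 when probes are tested singly. Both Loxl4 probes and both Fbln5 probes are filled, Vcan has 2 filled probes near 0.5 and an open one at 0.14, and the Mfap2 probes lie at the same height with 1 open.

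Acan and Hapln3 lie on opposite strands of chromosome 7, with 2.24 kb between their probes. Acan, encoding aggrecan, lay at 2.33, 3.02 and 3.26 against 2.34, 2.72 and 3.37, with full overlap (0.06, interval -0.77 to 0.88). Hapln3, a link protein gene, lay at -1.51, -1.53 and -1.44 against -1.15, -1.29 and -1.20. Its groups were separate, but the difference of -0.28 (standard error 0.09) had an adjusted p of 0.0817. Hspg2, encoding perlecan, the heparan sulphate proteoglycan of basement membranes, differed by 0.62 at one probe and 0.65 at the other (adjusted p = 0.125 for the brighter). Its arrays lay at 6.08, 6.20 and 6.69 against 5.43, 5.58 and 6.12.

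Among Comp and the matrilins, adaptor proteins of cartilage and tendon matrix, Matn2 fell. Matn2, the matrilin found outside cartilage, lay at 3.68, 3.81 and 3.79 against 4.16, 4.12 and 4.14, a 1.30-fold fall (log2 -0.38, standard error 0.09; adjusted p = 0.0343). The call was lost without each of the 6 arrays in turn (adjusted p between 0.0553 and 0.114) and with median scaling (0.232). Comp, encoding cartilage oligomeric matrix protein, lay at -0.03, 0.48 and 0.84 against 1.397, 1.001 and 1.03, separate but spread (-0.71, interval -1.30 to -0.13; adjusted p = 0.0905). Without Nod1 +/- replicate 3, Comp differed by -0.92 (adjusted p = 0.0478). Matn4 differed by -0.62 (adjusted p = 0.206).

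Genes outside the list whose products work with the members were counted next. For scale, 7.66% of all genes tested were higher and 11.0% lower. None of 10 further elastic fibre partners passed limma's adjusted threshold, with 2 higher and 2 lower at an unadjusted p below 0.05. Of 10 tested genes of the latent TGF-beta complex, 3 rose and 1 fell. Thbs1, encoding the TGF-beta activator thrombospondin-1, rose by 1.63 (adjusted p = 0.00111), the integrin subunit gene Itgav by 0.73 (adjusted p = 0.0216) and the ligand gene Tgfb1 by 0.84 (adjusted p = 0.0381), while the proprotein convertase gene Pcsk6 fell by 0.43.

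Of 30 tested genes for enzymes that build the sugar chains of proteoglycans, 7 rose and 3 fell. Their median difference was 0.24, against -0.10 for all genes. Beside the 7.66% higher and 11.0% lower of all genes tested, the 3 falls are near the overall share. Chst11, a chondroitin 4-O-sulphotransferase gene, rose by 1.31 (adjusted p = 0.00278), the chondroitin 6-O-sulphotransferase gene Chst15, which acts on 4-sulphated residues, by 0.91 (adjusted p = 0.00369), and the heparan 6-O-sulphotransferase gene Hs6st1 by 0.92 (adjusted p = 0.00553). The 3 that fell were Papss1 (-0.65, adjusted p = 0.0068), the glucuronic acid epimerase gene Glce (-0.64) and the chondroitin chain initiation gene Csgalnact1 (-0.54). Papss1 encodes a synthase of the sulphate donor. Papss2, the gene of the other such synthase, was among the 7 that rose (0.48, adjusted p = 0.0435). Of 15 other proteoglycan genes tested, the syndecan gene Sdc4 (1.97) and the serglycin gene Srgn (0.91), abundant in leukocyte granules, rose, and the leucine-rich proteoglycan genes Epyc (-1.14) and Chad (-1.03) fell. Epyc and Chad encode leucine-rich repeat proteins known from cartilage.

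Marker genes of other cell types were counted too, beside 11.0% lower and 7.66% higher among all genes tested. With lists this short, 1 call is not read as a change of the list. The mean of all genes tested lay between 0.35 and 0.39 on the Nod1 +/- arrays and between 0.42 and 0.44 on the Nod1 -/- arrays. Cartilage markers averaged between -1.25 and -0.93 on the Nod1 +/- arrays and between -0.41 and -0.29 on the Nod1 -/- arrays, and 4 of 9 tested fell (Cytl1, Col9a1, Sox9 and Chad, the last also counted above). Among the defining cartilage genes, Col2a1 was well above background on 1 Nod1 +/- and 3 Nod1 -/- arrays, and Sox6, Col9a3, Ucma and Col10a1 on none. Fibroblast markers averaged between 4.77 and 4.92 against 5.03 and 5.29, and 3 of 11 fell (Pdgfrl, Cd34 and Scara5). The fibrillar collagen genes Col1a1 and Col3a1 differed by 0.02 and -0.04, and the fibroblast genes Pdgfra and Thy1 by 0.16 and 0.10, none of them past the threshold. Their part in the falls of Hapln1, Omd, Ogn, Lum, Dcn and Aspn was not tested, and in whole vessels fewer cells of a type cannot be told apart from less RNA per cell. Smooth muscle markers, from the cells that make elastin, averaged between 3.80 and 4.05 against 3.57 and 4.05, and 1 of 11 (Des) rose. Endothelial markers averaged between 1.97 and 2.25 against 2.46 and 2.56, and 3 of 9 fell. Macrophage markers averaged between 2.03 and 2.08 against 2.04 and 2.84, and 3 of 7 fell (Cx3cr1 by 2.05, Lyve1 by 1.03 and Csf1r by 0.96). Schwann cell markers averaged between 0.67 and 0.94 against 1.0996 and 1.597, and 1 of 6 tested (Pmp22) fell. Of the 4 mesothelial markers, Lrrn4 fell by 1.99. Of 5 fat markers tested, none passed limma's adjusted threshold or an unadjusted p below 0.05. Neutrophil markers averaged between 2.56 and 3.20 against 0.23 and 0.59, and 6 of 8 rose. The part of these other lists in the results was not tested either.

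**Figure D4:**
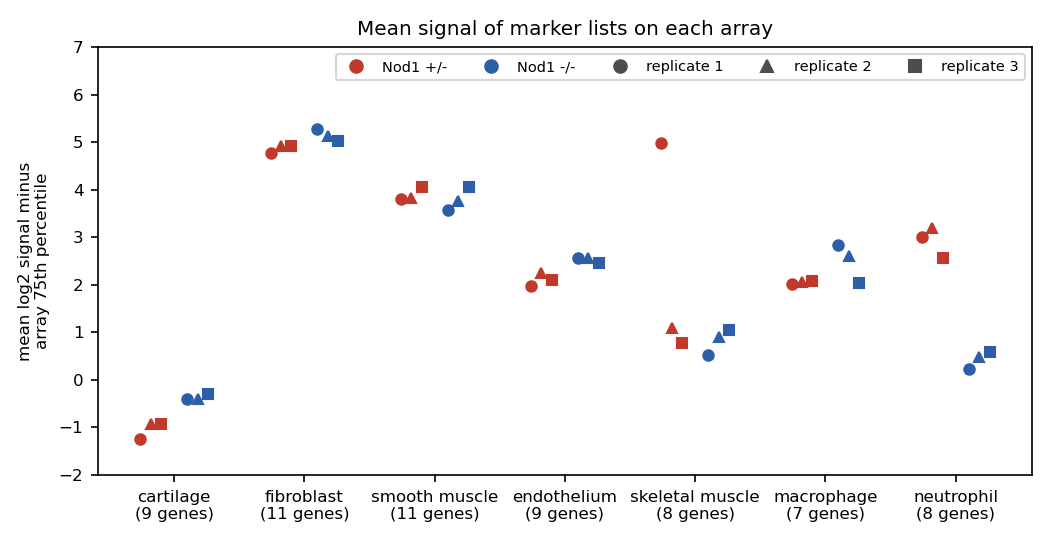
Mean log2 signal minus the array's 75th percentile over the tested genes of 7 marker lists, on each array. Cartilage, fibroblast and endothelial lists lie lower on every Nod1 +/- array than on every Nod1 -/- array, and the smooth muscle and macrophage lists overlap. The mean of all genes tested, not drawn, was also lower on every Nod1 +/- array (0.35 to 0.39 against 0.42 to 0.44). The neutrophil list is higher in Nod1 +/-, and Nod1 +/- replicate 1 stands apart in skeletal muscle genes.

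The position on the slide goes partly with genotype, since only Nod1 -/- replicate 3 shared row 2 with the Nod1 +/- arrays. Row 1 holds only Nod1 -/- arrays, so blocking on row sets Nod1 -/- replicate 3 against the 3 Nod1 +/- arrays. The differences are those of row 2 alone, -1.83 for Hapln1, 1.62 for Loxl4 and -0.71 for Fbln5. All 13 genes kept their sign, which was fixed in advance because their groups did not overlap. With the block only Fbln5 and Hapln1 passed the threshold, and the others had adjusted p between 0.0542 and 0.246. Row 2 alone sets 3 arrays against 1, too few for its p-values to bear on any call, and the block rests on the same 1 array. Without the first replicate of both genotypes Loxl4 and Hapln1 alone kept their calls.

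**Figure D5:**
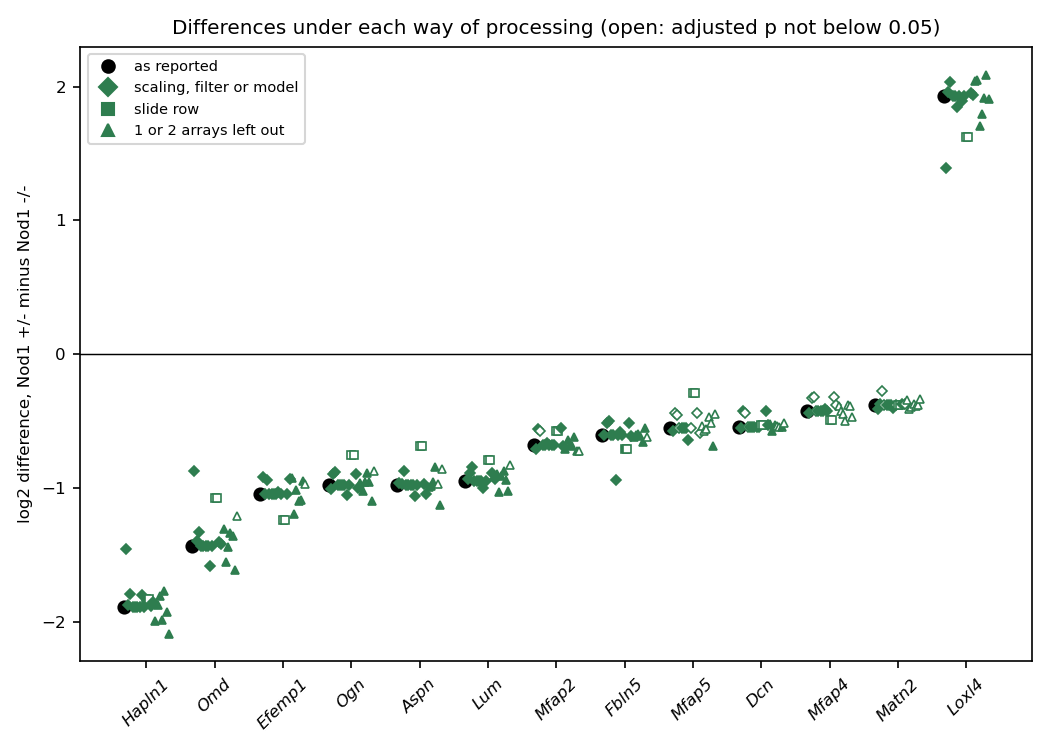
Log2 difference (Nod1 +/- minus Nod1 -/-) of the 13 genes as reported (black) and under each other way of processing (green), with open symbols where the adjusted p was not below 0.05. Every symbol stays on the side of 0 of the black one, which separate groups fix in advance for the slide row and left-out array symbols. Hapln1 and Loxl4 have few open symbols, and Mfap4, Mfap5 and Matn2 have many.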

How the data were processed

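Per the file headers, the deposited scanner files give a linear intensity for every spot, processed by Agilent Feature Extraction 10.7.1.1, with probe positions in mm9. Version 9.5.1.1 is named in the submitters' processing notes. The authors' deposited table of the whole series holds intensity values with the same distribution in all 6 columns, by a step not given in the sources used here. It served as an alternative.

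Control and outlier spots were left out, and 0 spots were saturated. Signals were taken to log2, spots of a probe averaged, and the array's 75th percentile subtracted. Probes well above background on at least 3 of 6 arrays were kept (30166 of 55681, 55 of the 60 of the genes described), and a gene was read by its brightest kept probe. Genotypes were compared with limma 3.58.1 in R 4.3.3 over 21478 genes, with Benjamini-Hochberg adjustment and a threshold of 0.05. Precision is limited by having 3 arrays a genotype.

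The genes, lists and naming rule were chosen with earlier results of these data known. The rule describes genes past the threshold, genes whose groups do not overlap or whose probes disagree, and the best-known member of each role. In other lists it names up to 3 changed genes with the smallest p or the defining markers. Tgfb1, Srgn, Sox9, Papss1, Papss2, Glce, Csgalnact1, Pdgfra, Thy1, Col1a1 and Col3a1 were named after their values were seen. Alternatives covered background correction, scaling, filters, probe choice, the prior, array weights, the replicate number or slide row as a block, Xist as a covariate, the deposited table and leaving out arrays. Promoters are RefSeq's (GRCm38.p6), for 29 of 41 genes.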

Additional observations from a re-analysis of the deposited data

How the results depend on the processing

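The count of 12 lower genes was 7 after median scaling and 2 when slide row was a block. It was 1 without the first replicate of both genotypes. With normexp background correction it was 13, with an intensity trend and robust prior 13, and with array weights 14. When single arrays were left out it lay between 7 and 11, lowest without Nod1 -/- replicate 2. Between 7 and 10 of the original 12 kept their calls there. The single higher gene became 0 when slide row was a block, and 2 when each probe was tested on its own, Vcan being the second. Within slide row 2 alone the counts were 0 lower and 0 higher, but 3 arrays against 1 say nothing about stability, with 33 lower and 160 higher among all genes. Leaving out arrays and blocking leave fewer samples for the estimate. The cause of the other changes was not tested. No difference of a gene past the threshold changed sign under any setting. Where arrays were left out or slide row was used, this was fixed in advance, because the groups of these genes did not overlap. Replicate numbers are shared by the genotypes, but no label says that they mark a litter or day. Deviations of same-numbered arrays correlated at 0.08, 0.28 and 0.11. Nod1 +/- replicates 1 and 2 correlated best with the Nod1 -/- array of the same number, and replicate 3 with Nod1 -/- replicate 1. With no label to settle it, the numbers were not taken as pairs, and the replicate block was fitted as an alternative. With the replicate block 10 genes were lower and 3 higher, Ltbp2 and Hspg2 joining Loxl4 (adjusted p = 0.0335 and 0.0258). The size of the Omd difference depends on background correction and that of Fbln5 on the probe. Dim probes such as Kera are read only a little above background.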
